A study of Mus musculus with 12 samples.

Results

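The genes described are 10 of the 17875 in the deposited tables, chosen by symbol as the interleukin-6, STAT3 and acute-phase response: the cytokines Il6 and Lif, the receptor chains Il6ra, Il6st and Osmr, the transcription factor Stat3, its feedback inhibitor Socs3, and the acute-phase genes Serpina3n, Lcn2 and Saa3. Serpina3n is among them because it stood out in low-dose tumours, so its values in comparisons with the low-dose libraries are given as a description without a test. RNA was sequenced from tumours of colorectal cancer grown under the skin of mice, in 12 libraries that form 4 groups of 3. All 4 groups carried the tumour. The stress group was also kept under chronic stress, the low-dose group had chronic stress and the low dose of Xiaochaihu decoction (XCHT-L), the high-dose group had chronic stress and the high dose (XCHT-H), and the control group had neither stress nor decoction. Xiaochaihu decoction is a multi-herb preparation of Chinese medicine. The doses in numbers, the tumour line, and the strain, sex and age of the mice were not given in the sources used here, and no group received the decoction without stress. Whether the 3 libraries of a group stem from different mice is not stated, and the p-values here reflect the variation among the libraries alone, some of which may be technical.

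Cytokines of the interleukin-6 family bind a ligand-specific receptor chain and then the shared signal-transducing chain gp130, the product of Il6st. Kinases of the JAK family on these receptors phosphorylate STAT3, which enters the nucleus and switches on target genes. Socs3 is such a target, and its product binds gp130 and the kinases and ends the signal. In the liver the same pathway drives the acute-phase proteins, and in tumours the cytokines come from fibroblasts, macrophages and cancer cells. Inflammatory cytokines act on several of these genes through NF-kappa-B as well.

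Library totals lay between 16734741 and 17950195 counts, so a single library had a floor of 0.167 to 0.181 CPM at 3 counts, for counting error only. CPM stands for counts-per-million, scaled between libraries. The labelled tissue is colorectal tumour, but most of the defining epithelial markers were near absent: Epcam reached at most 0.813 CPM, Krt18 was at 0 in 11 of 12 libraries and Krt8 at 0 in 7. The epithelial markers Lgals4, at 6.26 to 19.0 CPM, and Cdh1, at 4.01 to 16.9 CPM, were present in every library and made up most of the summed epithelial level of 13.3 to 29.3 CPM. Skin keratinocyte markers, a separate list, summed to 178 to 389 CPM. Most of that was Krt14, with group means of 209 to 340 CPM, whereas Krt5 averaged 0 CPM outside the stress group. The liver markers summed to at most 0.706 CPM with Alb at 0 in 11 libraries, so these acute-phase reads did not come with reads of a hepatocyte's defining genes. Neutrophil markers summed to 7.16 to 10.8 CPM in stress, 7.53 to 10.3 in low-dose, 4.77 to 11.3 in high-dose and 5.23 to 8.96 in control tumours, with Ly6g at 0 in 11 libraries. Skeletal muscle markers were high in 3 libraries, at 216 CPM in low-dose replicate 3, 529 in high-dose replicate 2 and 256 in control replicate 1, against at most 41.2 in the other 9. Low-dose replicate 2 stood apart in another way: its expression relative to the 12-library mean fell with transcript length across 11909 genes (r = -0.559, across genes, which are not independent), against -0.192 in low-dose replicate 3 and -0.052 to 0.334 in the other 10.

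Levels per transcript length, as transcripts-per-million (TPM), separated the 10 genes into an abundant signalling core and sparse ligands and acute-phase genes. Over the 12 libraries Il6st averaged 61.3 TPM, Stat3 50.3 and Socs3 49.9. The receptor chains Il6ra and Osmr averaged 18.2 and 12.1 TPM. Saa3 averaged 10.6 TPM, but between 0.8 and 68.5 in single libraries, and Serpina3n averaged 6.51. The cytokine Lif averaged 4.26 TPM, Il6 0.608 and Lcn2 0.318. The highest library exceeded the lowest by 1.35-fold for Stat3 and 2.11-fold for Il6st in CPM, against 4.69-fold for Serpina3n and 90.2-fold for Saa3.

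Saa3 had the largest log2 fold changes among the 8 tested members, 2.79 in low-dose against control and -2.88 in high-dose against low-dose tumours, each with an SE of 1.5, and single libraries decided them. The acute-phase gene Serpina3n averaged 11.2 ± 2.53 CPM in low-dose tumours and 5.13 ± 1.0 CPM in stress tumours (SD, n = 3 each), the difference for which it was chosen. The cytokine Lif had a higher mean in low-dose than in stress tumours, with overlap. The shared receptor chain Il6st was lower in all 3 low-dose than in all 3 stress libraries. The transcription factor Stat3 and the receptor chain Osmr differed by less than the spread between libraries in every comparison. None of the genes tested in the whole table passed an adjusted p of 0.05 in any of the 6 comparisons (0.0% of 13453 genes in each; edgeR quasi-likelihood test, Benjamini-Hochberg), and so no member did. On the same genes DESeq2 called 0 to 95 per comparison and limma-voom 0. No member was among the DESeq2 calls, with Serpina3n left out of the comparisons that use low-dose libraries. Of the 10 members 8 had enough counts to be tested, and Il6 and Lcn2 did not. Counts at an unadjusted p below 0.05 are therefore given only beside their background. In low-dose against stress tumours 2 of 7 members, Il6st and Lif, were below it, against 13.4% of all genes. In high-dose against low-dose tumours 1 of 7, Il6st, was below it, against 6.39%. In high-dose against control tumours 1 of 8, Serpina3n, was below it, against 1.04%. In stress against control tumours it was 0 of 8 against 2.85%, in high-dose against stress tumours 0 of 8 against 1.42%, and in low-dose against control tumours 0 of 7 against 13.2%. Where 7 are counted, Serpina3n is left out. Where 8 are counted it is included, and whether its high-dose or control values entered its choice is not known.

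Groups that did not overlap in CPM were few among the members, at shares near the background. Il6st was higher in every stress library than in every control library, the only 1 of 8, against 14.1% of all genes. Il6st was also lower in every low-dose library than in every stress library, the only 1 of 7, against 11.9%. Serpina3n was higher in every high-dose library than in every control library, the only 1 of 8, against 8.7%. No member separated high-dose from stress tumours (background 5.73%), and no member but the described Serpina3n separated high-dose from low-dose (7.36%) or low-dose from control tumours (17.4%).

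**Figure D1:**
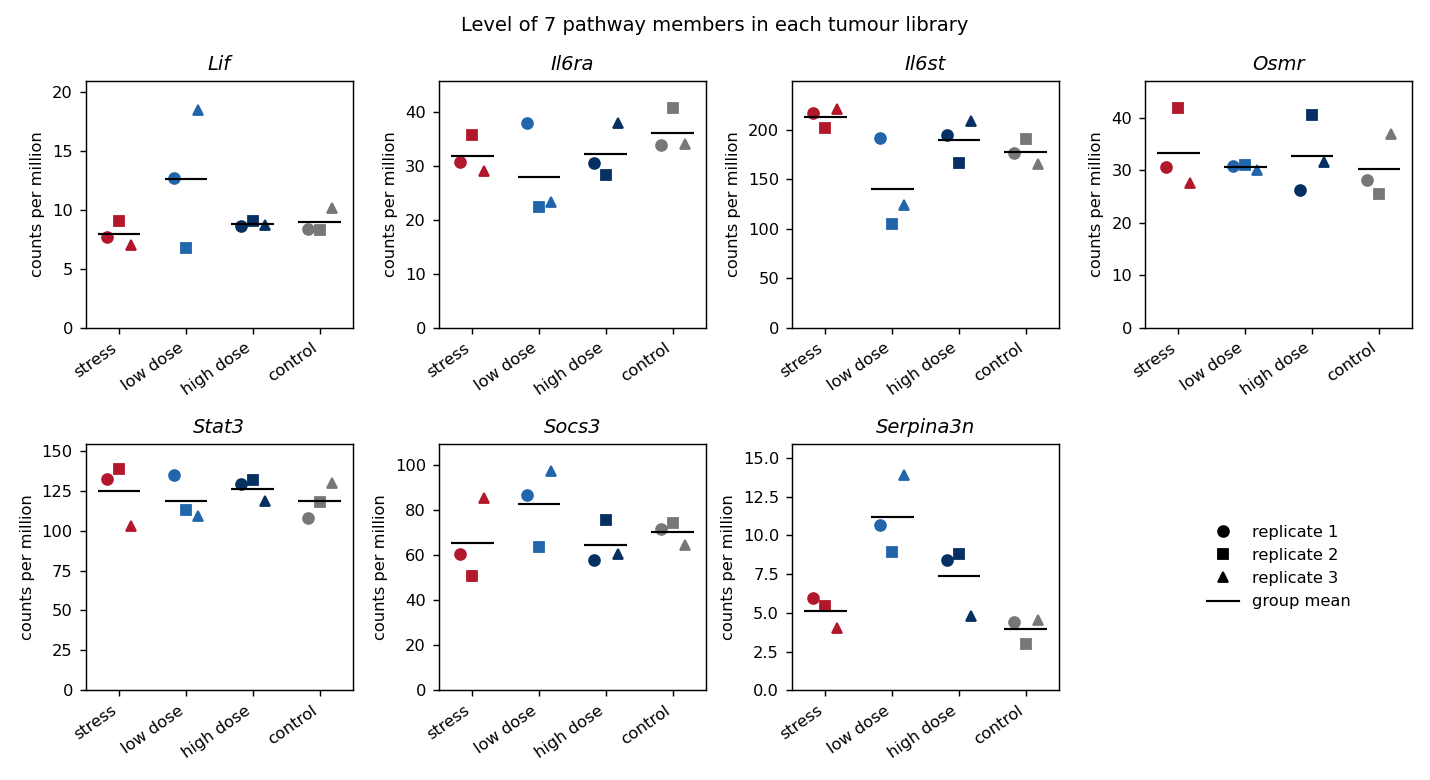
Levels as counts-per-million (CPM, vertical axes from 0) of 7 members in each of the 12 libraries, by group; marker shapes are replicates and black lines are group means. Serpina3n is highest in the 3 low-dose libraries, Il6st is lowest in low-dose replicates 2 and 3, and Stat3 and Osmr show no separation of the groups.

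Among the ligands, Lif, a cytokine that signals through the Lifr and gp130 chains, had 7.7, 9.09 and 7.05 CPM in stress tumours, 12.7, 6.78 and 18.5 CPM in low-dose tumours, 8.67, 9.11 and 8.71 CPM in high-dose tumours and 8.37, 8.31 and 10.1 CPM in control tumours. Low-dose replicate 3 was the highest of all and low-dose replicate 2 the lowest, so the group with the highest mean also held the widest spread. Lif was 1.59-fold higher in low-dose than in stress tumours (log2 fold change 0.67, SE 0.28, unadjusted p 0.0325 and adjusted p 0.346, edgeR). Omitting low-dose replicate 3 left a log2 difference of 0.29, and omitting replicate 2 of that group left 0.98. Between high-dose and low-dose tumours the log2 fold change of Lif was -0.52 (SE 0.28), between high-dose and stress tumours 0.15 (SE 0.28), and between stress and control tumours -0.17 (SE 0.28).

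Il6, the cytokine that gives the pathway its name, was at the limit of detection. Its counts were 3, 7 and 14 in stress tumours, 1, 1 and 10 in low-dose tumours, 6, 8 and 1 in high-dose tumours and 5, 2 and 3 in control tumours, 61 reads in all. The groups overlapped in every comparison and no fold is given. At this depth a difference in Il6 could be missed.

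Of the receptor chains, Il6st (chr13:112464070-112506860), which encodes gp130, had 217, 202 and 221 CPM in stress tumours, 192, 104 and 123 CPM in low-dose tumours, 194, 166 and 208 CPM in high-dose tumours and 177, 191 and 165 CPM in control tumours. All 3 stress libraries lay above all others except high-dose replicate 3, and low-dose replicates 2 and 3 lay below all others. Low-dose tumours averaged 139.9 ± 45.9 CPM and stress tumours 213 ± 9.89 CPM (SD, n = 3 each), a log2 fold change of -0.61 (SE 0.18, unadjusted p 0.00584, adjusted p 0.296, edgeR). Lower RNA per cell and fewer cells that express the gene cannot be told apart in these bulk tumours.

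Whether the Il6st difference passed the adjusted threshold depended on low-dose replicate 1, which at 192 CPM was closest to control replicate 2 and high-dose replicate 1 and far above the other low-dose libraries. Without it the difference was larger: the log2 fold change of Il6st was -0.90 (SE 0.12) in low-dose against stress tumours, with an adjusted p of 0.0139, and over all alternatives that p ran from 0.0139 to 0.732. Without the same library it was -0.64 (SE 0.12) in low-dose against control tumours, with an adjusted p of 0.0271 (0.0271 to 0.879 over the alternatives) and against -0.34 (SE 0.18) with all libraries. It was 0.73 (SE 0.12) in high-dose against low-dose tumours, with an adjusted p of 0.0435 (0.0435 to 1.0) and against 0.44 (SE 0.18) with all libraries. In the fit without that library, 1244 of 13636 genes passed in low-dose against stress tumours. There 652 passed in low-dose against control and 99 in high-dose against low-dose tumours. The libraries that remain then include low-dose replicate 2, the one with the length trend, and Il6st is a long transcript, 0.99 log2 units above the median gene. With each library's length trend removed, the log2 fold change in low-dose against stress tumours was -0.48. Without low-dose replicate 2 it was -0.42.

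In stress against control tumours Il6st had a mean of 213 ± 9.89 CPM and 178 ± 12.9 CPM (SD, n = 3 each), a log2 fold change of 0.26 (SE 0.18, adjusted p 0.9999, edgeR). Over leaving out each library in turn it stayed between 0.21 and 0.32. Over the 10 fibroblast markers, the summed level was 11200 to 14350 CPM in those stress libraries and 6554 to 8688 CPM in the control libraries, without overlap. Most of that sum was the collagen gene Col3a1, at 9233 to 11980 CPM in stress and 4946 to 6722 CPM in control libraries. Of the 10 fibroblast markers 8 had a positive log2 fold change, with a list median of 0.27. None was below an unadjusted p of 0.05, against 2.85% of all genes. Postn, which encodes the matrix protein periostin, went the other way, with 60.6 to 97.7 CPM in stress and 121.6 to 158.7 CPM in control libraries. Over the 10 macrophage markers the summed level was 825 to 1120.0 CPM in stress and 763 to 863 CPM in control tumours, with overlap. Of these 10, 9 were positive with a median of 0.27, and 1 was below an unadjusted p of 0.05. In low-dose tumours, where Il6st was lower than in stress, the fibroblast sum was 6118 to 19330 CPM. The macrophage sum there was 767 to 1379 CPM. In low-dose against stress tumours 7 of 10 fibroblast markers were positive (median 0.29) and 5 of 10 macrophage markers (median -0.04). The part of either marker list in the Il6st differences was not tested.

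Il6ra, the chain that binds interleukin-6 itself, had 30.8, 35.8 and 29.1 CPM in stress tumours, 38.1, 22.5 and 23.3 CPM in low-dose tumours, 30.5, 28.3 and 38.1 CPM in high-dose tumours and 33.9, 40.7 and 34.1 CPM in control tumours. As for Il6st, low-dose replicates 2 and 3 were the lowest of the 12 and low-dose replicate 1 was among the highest. The log2 fold change was -0.37 (SE 0.19, adjusted p 0.42, edgeR) in low-dose against control tumours. Without low-dose replicate 1 it was -0.66 (SE 0.15), with an adjusted p of 0.0377 (0.0377 to 0.863 over the alternatives). In that fit 652 of 13636 genes passed in the same comparison. With all libraries the log2 fold change of Il6ra was -0.19 (SE 0.19) in low-dose against stress tumours and -0.18 (SE 0.19) in stress against control tumours.

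Osmr, the chain that pairs with gp130 for oncostatin M, had 30.5, 41.8 and 27.6 CPM in stress tumours, 30.7, 31.0 and 30.0 CPM in low-dose tumours, 26.1, 40.4 and 31.5 CPM in high-dose tumours and 28.1, 25.4 and 36.9 CPM in control tumours. All 4 groups overlapped, and the 3 low-dose libraries were nearly level. Its log2 fold changes in the 6 comparisons ran from -0.12 to 0.14, each with an SE of 0.19.

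Stat3, the transcription factor itself, was the most even member. It had 133, 139 and 103 CPM in stress tumours, 135, 113 and 109 CPM in low-dose tumours, 129, 131 and 118 CPM in high-dose tumours and 108, 118 and 130 CPM in control tumours. Its log2 fold changes ran from -0.07 to 0.09 with an SE of 0.13. These are transcript levels, and STAT3 acts once phosphorylated, which these libraries do not measure.

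Socs3 (chr11:117966079-117970336), the feedback inhibitor, had 60.3, 50.9 and 85.5 CPM in stress tumours, 86.6, 63.8 and 97.2 CPM in low-dose tumours, 57.8, 75.5 and 60.7 CPM in high-dose tumours and 71.8, 74.4 and 64.6 CPM in control tumours. The highest low-dose library and the highest stress library were both replicate 3, and every pair of groups overlapped. Socs3 was 1.26-fold higher in low-dose than in stress tumours (log2 0.33, SE 0.19, adjusted p 0.458, edgeR), which was within the spread. High-dose against low-dose tumours gave -0.35 (SE 0.19, adjusted p 0.758), and stress against control tumours -0.10 (SE 0.19).

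**Figure D2:**
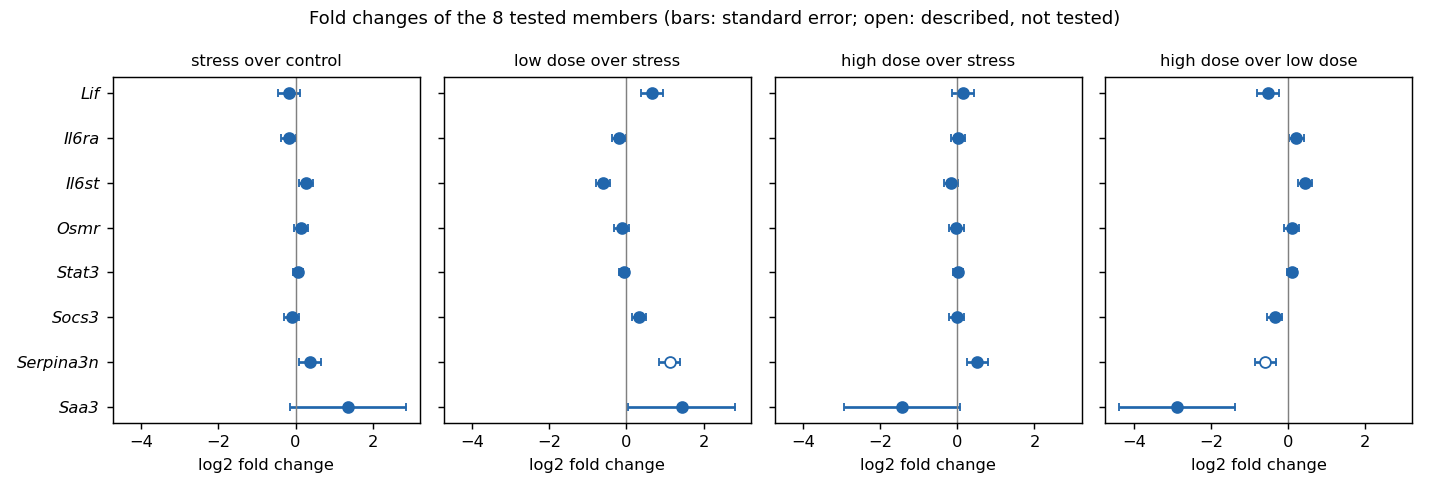
Log2 fold changes of the 8 tested members in 4 comparisons, the first group named over the second, with bars for the standard error from edgeR; open circles mark Serpina3n where it was chosen on the values shown. Saa3 has the longest bars in each panel, and the values of Stat3 and Osmr lie between -0.12 and 0.14.

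Serpina3n, an inhibitor of serine proteases that is induced in acute-phase responses and in reactive astrocytes, had 5.95, 5.42 and 4.01 CPM in stress tumours, 10.7, 8.91 and 13.9 CPM in low-dose tumours, 8.39, 8.82 and 4.82 CPM in high-dose tumours and 4.39, 2.96 and 4.56 CPM in control tumours. In CPM the low-dose libraries lay above all 9 others, and the closest were low-dose replicate 2 at 8.91 and high-dose replicate 2 at 8.82 CPM. In TPM the low-dose and high-dose libraries overlapped. There low-dose replicate 2 had 6.99 TPM, below high-dose replicates 1 and 2 at 8.37 and 8.36 TPM. As a description, the log2 fold change was 1.12 (SE 0.28) in low-dose against stress tumours, 1.49 (SE 0.28) in low-dose against control tumours and -0.60 (SE 0.27) in high-dose against low-dose tumours. In low-dose against stress tumours it was 0.93 when low-dose replicate 3 was left out and 1.27 when replicate 2 of that group was left out.

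The stated reason for choosing Serpina3n names the low-dose tumours, and whether the values of other groups entered the choice is not known. High-dose tumours averaged 7.34 ± 2.19 CPM, stress tumours 5.13 ± 1.0 CPM and control tumours 3.97 ± 0.878 CPM (SD, n = 3 each). In high-dose against stress tumours the log2 fold change was 0.52 (SE 0.28, adjusted p 0.9998, edgeR), and high-dose replicate 3 fell among the stress libraries. In high-dose against control tumours it was 0.89 (SE 0.28, unadjusted p 0.00805, adjusted p 1.0), 0.71 to 1.11 over leaving out each library in turn. In stress against control tumours it was 0.37 (SE 0.28, adjusted p 0.9999), with overlap. The high-dose and stress comparisons share their control libraries.

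The more abundant paralogues of Serpina3n on chromosome 12 did not share its order, whereas the sparse Serpina3m also had its highest mean in low-dose and its lowest in control tumours. Serpina3n lies at chr12:104406646-104414334, and Serpina3c, Serpina3f, Serpina3g, Serpina3i and Serpina3m lie within the same cluster (GRCm38.p6). Serpina3g had 129, 58.0 and 35.6 TPM in stress tumours, 75.6, 31.2 and 50.9 TPM in low-dose tumours, 77.5, 102 and 64.9 TPM in high-dose tumours and 83.7, 75.2 and 86.6 TPM in control tumours. In low-dose against stress tumours the log2 fold change was -0.39 (SE 0.41) for Serpina3g, -0.45 (SE 0.60) for Serpina3f and -0.46 (SE 0.49) for Serpina3i. None passed (adjusted p 0.692, 0.759 and 0.693, edgeR). Serpina3m, a few reads per library, had 5, 13 and 3 counts in stress tumours, 24, 12 and 6 in low-dose tumours, 5, 1 and 14 in high-dose tumours and 2, 3 and 2 in control tumours. Its log2 fold change was 2.49 (SE 0.85, unadjusted p 0.0127, adjusted p 0.322, edgeR) in low-dose against control tumours, without overlap, and 0.97 (SE 0.74, adjusted p 0.566) in low-dose against stress tumours, with overlap. Serpina3c had at most 4 counts in a library and was not tested.

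Near-identical copies can share reads, and counts that are not whole can mark reads split between genes. The authors' count was not a whole number in 2 of 12 libraries for Serpina3n, in 8 for Serpina3g in 12 for both Serpina3f and Serpina3i, and in 0 for Serpina3m. No 150-base window of the 1915 in the longest Serpina3n transcript occurred exactly in another transcript of the Serpina3 or Saa genes in the reference. The same held for Serpina3f, Serpina3g and Serpina3i, so that measure does not set Serpina3n apart from them, and for Serpina3m 5 of 1510 windows were shared. Values of Serpina3f, Serpina3g and Serpina3i are uncertain as far as their reads were split.

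**Figure D3:**
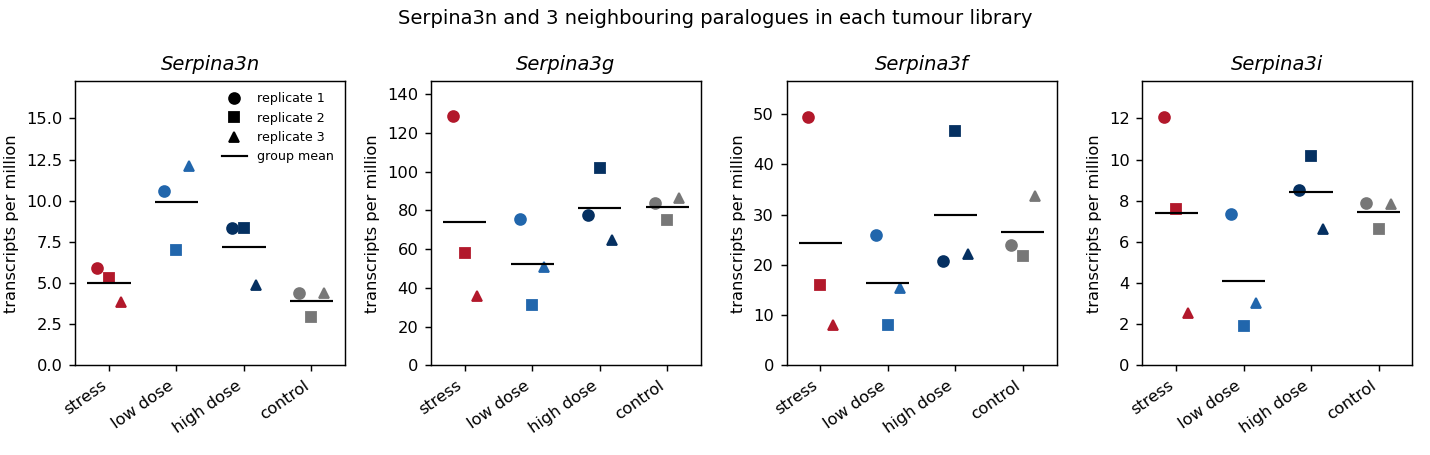
Levels as transcripts-per-million (TPM, vertical axes from 0) of Serpina3n and 3 paralogues in each library, by group; marker shapes are replicates and black lines are group means. The mean of Serpina3n is highest in low-dose tumours, with low-dose replicate 2 below high-dose replicates 1 and 2. The 3 paralogues have their highest value in stress replicate 1 and their low-dose means below the other groups.

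The promoters of Serpina3n, Serpina3g and Socs3 are shown for the letters of the factors' motifs. Any part of these letters in the levels of the genes was not tested. RefSeq promoters, each from 250 bases before to 50 after the start of a transcript in GRCm38.p6, matched 10 of the 10 members. For Serpina3n and Socs3 that transcript start lies inside the span given above for the gene, which begins further upstream, and distances here are counted from it. Each was searched on both strands for TTCNNNGAA, a STAT motif, and for GGG followed by any 2 bases and TTTCC, an NF-kappa-B motif. Capitals mark the matches. The stretches are chr12:104406458-104406757 on the plus strand for Serpina3n, chr12:104235897-104236196 on the plus strand for Serpina3g and chr11:117969317-117969616 on the minus strand for Socs3.
Serpina3n: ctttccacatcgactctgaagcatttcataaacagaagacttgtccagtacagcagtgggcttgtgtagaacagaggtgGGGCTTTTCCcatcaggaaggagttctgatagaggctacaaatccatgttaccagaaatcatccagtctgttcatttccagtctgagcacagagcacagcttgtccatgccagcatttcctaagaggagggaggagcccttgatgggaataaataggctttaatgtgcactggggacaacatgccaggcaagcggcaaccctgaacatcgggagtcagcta
Serpina3g: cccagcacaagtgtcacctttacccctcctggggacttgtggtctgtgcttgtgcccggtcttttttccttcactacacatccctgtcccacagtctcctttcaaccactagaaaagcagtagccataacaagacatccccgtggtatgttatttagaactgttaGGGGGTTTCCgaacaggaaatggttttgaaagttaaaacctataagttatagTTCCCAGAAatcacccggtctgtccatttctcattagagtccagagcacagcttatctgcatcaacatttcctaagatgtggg
Socs3: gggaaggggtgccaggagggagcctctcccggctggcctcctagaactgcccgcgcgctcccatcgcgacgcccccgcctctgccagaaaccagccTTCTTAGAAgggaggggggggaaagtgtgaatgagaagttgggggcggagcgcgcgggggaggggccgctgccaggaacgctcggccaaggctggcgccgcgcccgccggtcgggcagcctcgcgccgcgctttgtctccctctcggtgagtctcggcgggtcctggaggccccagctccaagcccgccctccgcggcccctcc

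The STAT motif was found in 1 of the 10 members' promoters, that of Socs3, as TTCTTAGAA starting 154 bases upstream of that transcript start. Of 32851 promoters of the same length in the reference, 8.3% held it. The NF-kappa-B motif was found in 2 of the 10, as GGGCTTTTCC 171 bases upstream in Serpina3n and as GGGATTTTCC 44 bases upstream in Il6, against 1.63% of the 32851. Serpina3g held both, the STAT motif as TTCCCAGAA 33 bases upstream and the NF-kappa-B motif as GGGGGTTTCC 85 bases upstream, without overlap. Serpina3i held both as well, Serpina3f held the STAT motif and Serpina3c held neither. In Serpina3n the stretch that aligned with the STAT motif of Serpina3g was TTACCAGAA, 123 bases upstream. It differs from the Serpina3g motif by C3A, with positions counted from 1 at the first T of the motif and the base of Serpina3g given first. Over the 33 bases compared, 24 were identical between Serpina3n and Serpina3g. A match is a run of letters, and binding of a factor was not measured.

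The genes whose level followed Serpina3n most closely over the 12 libraries were not members of the pathway lists. Among 11782 genes with a mean FPKM of at least 1, the highest correlations of log2 CPM were for Wfdc17 (Pearson r 0.93, Spearman rho 0.95), Sdc1 (0.91, 0.81), Ccl7 (0.90, 0.90), Tmem33 (0.89, 0.92) and Ccnd3 (0.89, 0.87). Sdc1 encodes syndecan-1, Ccl7 a chemokine that attracts monocytes and Ccnd3 cyclin D3. These 12 points share their groups, and Serpina3n was chosen for its pattern, so the values rank likeness and test nothing. Lif had r = 0.60 with Serpina3n, rank 591, Socs3 0.30, Saa3 0.28, Osmr 0.18 and Stat3 0.17. Il6st and Il6ra ran the other way, at -0.55 and -0.61. Serpina3g had -0.01.

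Saa3, a serum amyloid A protein made outside the liver by macrophages and adipocytes, was decided by single libraries. Its counts were 11, 4 and 93 in stress tumours, 8, 12 and 261 in low-dose tumours, 28, 9 and 3 in high-dose tumours and 3, 28 and 10 in control tumours. Low-dose replicate 3 alone held 261 of the 470 counts. With all libraries the log2 fold change was 1.43 (SE 1.38) in low-dose against stress tumours and 2.79 (SE 1.5) in low-dose against control tumours, and -2.88 (SE 1.5) in high-dose against low-dose tumours. Without low-dose replicate 3 these were -1.85, -0.49 and 0.41. Without stress replicate 3 the stress against control value was -0.87, against 1.36 (SE 1.5) with all libraries.

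Lcn2, the siderophore-binding protein lipocalin-2 of neutrophils and inflamed epithelium, had counts of 0, 0 and 7 in stress tumours, 0, 1 and 3 in low-dose tumours, 1, 8 and 0 in high-dose tumours and 1, 0 and 1 in control tumours. It was at 0 in 5 libraries, each of which allows up to 3 counts, or 0.169 to 0.175 CPM. Its 22 counts in all allow no comparison. Haptoglobin, Hp, another acute-phase gene, reached 10.9 CPM in low-dose replicate 3, against 0.583 to 5.17 in the other libraries.

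**Figure D4:**
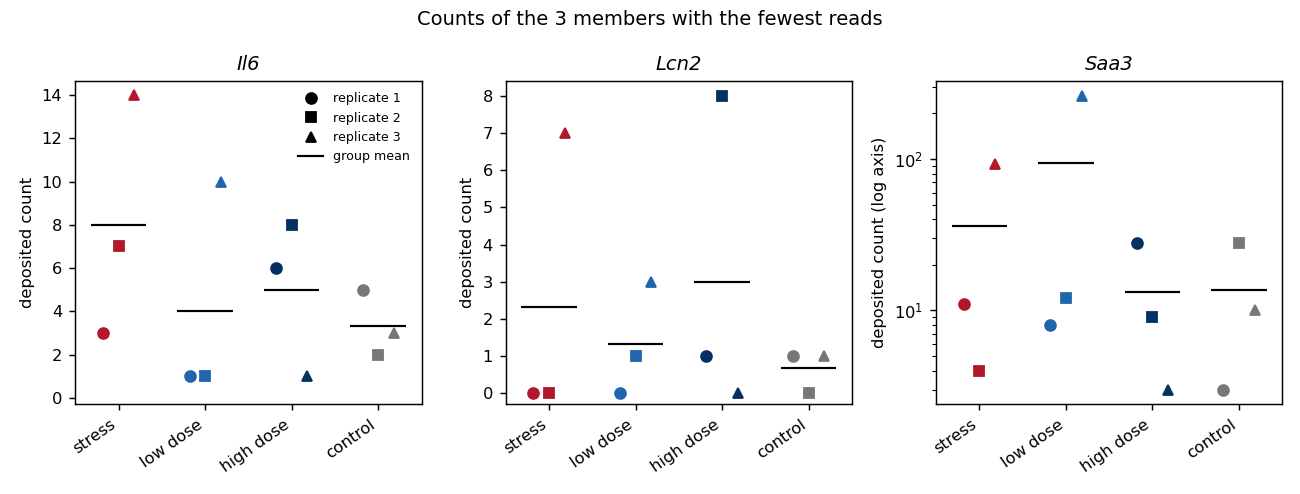
Deposited counts of Il6, Lcn2 and Saa3 in each library, by group; marker shapes are replicates, black lines are group means and the Saa3 axis is logarithmic. Saa3 reaches 261 counts in low-dose replicate 3, and Lcn2 has 8 in high-dose replicate 2 and 7 in stress replicate 3. The higher counts of Il6 are spread over several libraries.

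The same low-dose library held several extremes. Low-dose replicate 3 had the highest value of 4 members, Lif, Socs3, Serpina3n and Saa3, and it is among the 3 libraries with the most muscle transcripts. Low-dose replicate 2 had the lowest value of 3, Lif, Il6ra and Il6st. Without the 3 muscle-rich libraries the log2 fold change in low-dose against stress tumours was 0.29 for Lif, 0.93 for Serpina3n and -0.52 for Il6st. For Saa3 it was -1.85.

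The other genes of the pathway, in 7 lists by role, gave no gene past the adjusted threshold in any comparison, and members that were tested appear in them. In low-dose against stress tumours, 3 of 9 family ligands were higher at an unadjusted p below 0.05 and 0 were lower, against 13.4% of all genes in either direction. The list's median log2 fold change was 0.43, against 0.0 over all genes. The ligand Osm, oncostatin M, had 1.52, 1.28 and 1.95 CPM in stress tumours, 4.38, 2.36 and 5.66 CPM in low-dose tumours, 1.39, 2.53 and 1.05 CPM in high-dose tumours and 1.41, 2.79 and 1.68 CPM in control tumours. All 3 low-dose libraries lay above all 3 stress libraries, with a log2 fold change of 1.38 (SE 0.42, adjusted p 0.296, edgeR). Il11, a gp130 cytokine of fibroblasts, had 1.28, 1.34 and 1.38 CPM in stress tumours, 1.52, 2.59 and 3.19 CPM in low-dose tumours, 0.889, 1.41 and 1.16 CPM in high-dose tumours and 0.995, 1.1 and 1.2 CPM in control tumours. Low-dose libraries were above all 9 others, with a log2 fold change of 0.86 (SE 0.32, adjusted p 0.32) against stress and 1.14 (SE 0.33, adjusted p 0.321) against control tumours.

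Receptors and signal carriers had negative list medians in low-dose against stress tumours. There 2 of 6 receptors, Il6st and Lifr, were lower at an unadjusted p below 0.05 and 0 were higher, against 13.4% of all genes in either direction, with a list median of -0.24. Lifr had 18.5, 12 and 17.5 CPM in stress tumours, 12.7, 7.30 and 8.19 CPM in low-dose tumours, 12, 9.76 and 13.5 CPM in high-dose tumours and 12.4, 11.7 and 12.5 CPM in control tumours, a log2 fold change of -0.77 (SE 0.22, adjusted p 0.296, edgeR) in low-dose against stress. Of 8 JAK and STAT signal carriers 2 were lower at that threshold, Tyk2 (-0.37, SE 0.13) and Jak1 (-0.25, SE 0.11), against the same 13.4%, the list median was -0.22 and 0 of 8 had a positive value. Jak1, Jak2, Lifr and Il6st were each lowest in low-dose replicate 2, the library whose expression fell with transcript length (r = -0.559), and the part of that trend in the list medians was not tested. In high-dose against low-dose tumours 8 of 8 signal carriers were positive with a median of 0.16. There 0 were below an unadjusted p of 0.05, against 6.39% of all genes, and both comparisons use the low-dose libraries. Of 9 feedback inhibitors 1 was lower at that threshold in low-dose against stress tumours, Pias3 (-0.48, SE 0.19), against the same 13.4%. Their median was -0.03.

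Among 21 STAT3 target genes 2 were higher in low-dose against stress tumours at an unadjusted p below 0.05 and 0 lower, a smaller share than the 13.4% of all genes in either direction, with a median of 0.08. They were Timp1, an inhibitor of matrix metalloproteinases (1.06, SE 0.34, adjusted p 0.297), and Junb, a subunit of AP-1 (0.60, SE 0.21, adjusted p 0.313, edgeR). Junb had 75.5, 66.2 and 113 CPM in stress tumours, 145, 105 and 135 CPM in low-dose tumours, 58.4, 86.3 and 65.7 CPM in high-dose tumours and 75.6, 95.5 and 84.0 CPM in control tumours. High-dose libraries were all below low-dose libraries, with a log2 fold change of -0.87 (SE 0.21, unadjusted p 0.00115, adjusted p 0.758). Timp1 reached 171 CPM in low-dose replicate 3, against 60.1 and 88.2 CPM in the other low-dose libraries. Cebpd, a transcription factor of the acute-phase response, was the 1 target of 21 below an unadjusted p of 0.05 in stress against control tumours (1.08, SE 0.31), against 2.85% of all genes.

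The 18 acute-phase genes in the fit include Serpina3n, which is described and not tested in low-dose against stress tumours. None of the others was below an unadjusted p of 0.05 there, against 13.4% of all genes. The list median was 0.22 with 12 positive. Serpina3n, which was chosen on these values, is included in that median and among the 12. Saa1, a liver form, summed to 0 counts in stress, 2 in low-dose, 0 in high-dose and 1 in control tumours. Saa2, another liver form, summed to 0, 4, 3 and 1 counts in the same order. Neither exceeded 3 counts in a single library. The 12 genes of upstream inflammatory signalling include the cytokines Il1b and Tnf, the receptor Tlr4, and Myd88 and Nfkbia. Of these 12, 0 were higher and 1 was lower at that threshold in low-dose against stress tumours. It was Il1r1 (-0.45, SE 0.19), against 13.4% of all genes in either direction, and the list median was 0.05. In high-dose against stress tumours, 0 genes of the 7 lists were below an unadjusted p of 0.05 in either direction, against 1.42% of all genes.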

How the data were processed

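Messenger RNA of 12 tumour libraries was measured by poly(A)-selected, strand-marked paired sequencing, per the labels' protocols. Reads were processed with cutadapt 1.9, HISAT2 2.0.4 and StringTie 1.3.4d on GRCm38.p6, per the submitters' processing notes. The gene annotation, counting options and filters are not given in the sources used here. The deposited estimated counts per gene were made by the authors without scaling, and 11.7% to 12.5% of the values in a library were not whole. They were rounded here. The authors' deposited FPKM is corrected for gene length and depth. It served here only as a minimum of 1 for genes compared with Serpina3n. The authors' deposited TPM has the same sum in every library. It served to compare levels between genes.

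The filterByExpr function of edgeR 4.0.16 (R 4.3.3), set to 10 counts, kept 13453 genes. They were scaled with TMM and tested 2-sided by robust quasi-likelihood in a single model of the 4 groups and 12 libraries, with 8 residual degrees of freedom. Benjamini-Hochberg adjustment covered every gene in the fit, and calls needed an adjusted p under 0.05. Standard errors were taken from the fold change and the test's F. CPM are TMM-scaled. The 6 comparisons share groups. The pipeline was tested on simulated data. The alternatives were DESeq2 1.42.0, limma-voom (limma 3.58.1) with quality weights, RLE factors, an unfiltered table, a filter at 50 counts, fits of just 6 libraries, a block for the replicate number, omission of the 3 muscle-rich libraries, removal of each library's trend with transcript length by a loess span of 0.3, and omission of each library in turn.

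The members, gene lists and alternatives were chosen with earlier results of these data known. All members were named. Of the other list genes, those passing were to be named, and otherwise at most 4 per list and comparison with the smallest unadjusted p. The 5 genes most like Serpina3n and its paralogues were named whatever their values. Hp, Saa1 and Saa2 are named outside this rule and were chosen after their values were seen, as were the marker genes named singly. Gene positions and promoters are from RefSeq on GRCm38.p6, and the transcripts searched for shared windows are from GENCODE.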

Additional observations from a re-analysis of the deposited data

How the results depend on the processing

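Of 1002 log2 fold changes of members recomputed over the 6 comparisons and 21 alternatives, 49 changed sign, 43 of them where the reported value lay within 1 standard error of 0. The other 6 were of Saa3, whose counts ran from 3 to 261 in single libraries: without the 3 muscle-rich libraries it was -1.85 in low-dose against stress, 0.61 in high-dose against low-dose and -0.96 in low-dose against control tumours, and without low-dose replicate 3 it was -1.85, 0.41 and -0.49. Over single-library omissions Saa3 ran from -1.85 to 3.67, from -3.97 to 0.41 and from -0.49 to 3.83 in these 3 comparisons. Saa3 was not tested at a minimum count of 50. The number of genes past the adjusted threshold was 0 in all 6 comparisons. DESeq2 gave 1 in stress against control, 95 in low-dose against stress, 5 in high-dose against low-dose, 71 in low-dose against control and 1 in high-dose against control tumours. The 6-library fit gave 1 in high-dose against control, and omission of the muscle-rich libraries gave 1 in low-dose against control tumours. Limma-voom gave 0 in each. Serpina3n is left out of the member counts that follow wherever low-dose libraries were compared. Leaving out single libraries gave 0 to 1244 genes and 0 to 1 member in low-dose against stress, 0 to 99 genes and 0 to 1 member in high-dose against low-dose, 0 to 652 genes and 0 to 2 members in low-dose against control, and 0 to 1 gene in high-dose against control tumours. The highest counts in the first 3 came without low-dose replicate 1, with 13636 genes tested, and in high-dose against control without stress replicate 1. With 1 library left out, its group has 2 and the spread is pooled over all groups. The cause of these differences was not tested.

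No consistent pairing by replicate number was seen. Of 18 pairs with the same number, 3 had deviations from their group means correlated above 0.1 (-0.451 to 0.415 over the 18). In all, 5 of 12 libraries had their best match in a same-numbered library. The highest correlation, 0.669, was between low-dose replicate 3 and high-dose replicate 2. Deviations from a mean of 3 libraries depend on one another, so this check cannot settle whether libraries were paired. With the replicate block 0 genes and 0 members were called in any comparison, and Il6st in low-dose against stress tumours had a log2 fold change of -0.63. Il6 and Lcn2, with 61 and 22 counts in all, are limited by depth, and Saa3, with 470, by its spread between libraries.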
